A study of Homo sapiens with 33 samples.

Results

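Oxidative phosphorylation depends on 5 protein complexes of the inner mitochondrial membrane, and the genes described here are the ones that nuclear DNA contributes to them. They were chosen by symbol among protein-coding genes: the NDUF, UQCR, COX4 to COX8 and ATP5 names, the 4 SDH genes and CYC1, with NDUFAF assembly factors and pseudogenes left out. That gave 92 of the 60675 genes in the count table. Complex I held 38 of them, complex II 4, complex III 10, complex IV 19 and complex V 21, with NDUFA4 and NDUFA4L2 placed in complex IV, where their proteins belong. A further 152 pseudogene or non-coding rows with matching names were dropped, and their counts came to 0.0915 to 0.132% of the 92 genes' counts in extract libraries and 0.117 to 0.123% in vehicle libraries. Of the 92 genes, 86 passed the filter on low counts.

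Complexes I to IV pass electrons from NADH and succinate to oxygen and, except for complex II, pump protons across the membrane, and complex V, the ATP synthase, uses the resulting gradient to make ATP. Complex II is encoded wholly in the nucleus, while the other complexes also need subunits from mitochondrial DNA, so that a working chain draws on both genomes. In cell lines, nuclear respiratory factors such as NRF1, the ETS factor GABP and YY1, with coactivators of the PGC-1 family, are known to bind many of these genes.

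RNA was sequenced from HT29, a human colorectal adenocarcinoma line, 24 h after treatment with ethanol extracts of herbal formulas. The extracts were Sagunja-tang, Samul-tang, Palmul-tang, which joins the herbs of both, and Sibjeondaebo-tang, which has more herbs on top of Palmul-tang's. Each was given at 20, 100 and 500 µg/mL, named low, medium and high dose here. Sagunja-tang and Samul-tang had 2 libraries per dose, Palmul-tang and Sibjeondaebo-tang had 3 per dose, and the shared vehicle group, cells given DMSO (0.1% in the sample labels, another percentage in the series text), had 3, which made 33 libraries in 13 groups. The labels do not say that replicates came from separate cultures, so p-values measure the spread between these libraries, which may be technical. All cells come from 1 line, and levels in bulk RNA cannot tell fewer expressing cells from less RNA per cell.

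Total counts ran from 28558886 to 49068064 in extract libraries and from 31071823 to 35626423 in vehicle libraries. Epithelial markers were high in all libraries (the 9 marker genes summed to 11553 to 13978 normalised CPM, counts scaled to a common library size, in extract libraries and 12214 to 12655 CPM in vehicle libraries), whereas the fibroblast markers summed to 1.65 to 2.74 CPM and 1.81 to 2.21 CPM. The 5 leukocyte markers summed to 1368 to 1821 CPM with extracts and 1374 to 1436 CPM in vehicle, nearly all of it LYZ (median 1495 CPM), while PTPRC and CD3E had a median of 0. The first part of the sample codes separates vehicle, the pair Samul-tang and Sagunja-tang, and the pair Sibjeondaebo-tang and Palmul-tang, which the labels leave without a meaning. The titles put all 33 libraries in the same batch, BatchE. If the codes mark a further batch, it cannot be told apart from the treatment in comparisons with vehicle. Among the extract libraries, Sagunja-tang high replicate 2 stood apart. Its median log2 deviation of the 86 genes from the mean library was 0.28, against -0.10 to 0.16 in the other extract libraries. Its deviations fell with transcript length (Spearman rho -0.45 over all genes). Counts and medians for high-dose Sagunja-tang are therefore given with and without it. Vehicle replicate 3 also stood apart, on the low side, at -0.27, against -0.15 and -0.10 in the other vehicle libraries. That library enters every comparison with vehicle.

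Against vehicle, the nuclear-encoded genes were more often higher than genes at large in all 12 comparisons, and the median change was small. A gene is called higher or lower when edgeR's quasi-likelihood test with Benjamini-Hochberg adjustment over the 17433 genes tested gave an adjusted p under 0.05. With Sibjeondaebo-tang 36 of 86 genes were called higher at the low dose (11.1% of all tested genes were), 47 at the medium dose (14%) and 60 at the high dose (20.5%). Palmul-tang gave 35 (10.6%), 34 (10.3%) and 50 (17.3%) from the low to the high dose, and Samul-tang gave 28 (8.89%), 37 (10.9%) and 27 (15%). Sagunja-tang gave 38 (11.1%), 20 (8.4%) and 54 (18.7%). The median log2 fold change of the 86 genes over vehicle was 0.14 to 0.17 with the low doses, 0.11 to 0.21 with the medium doses and 0.13 to 0.29 with the high doses, while the median of all tested genes lay between -0.02 and 0.01. The highest of these, 0.29 with high-dose Sagunja-tang, was 0.19 without its replicate 2, where 29 genes were called higher (9.04% of all tested genes), and 0.43 without its replicate 3. Leaving out vehicle replicate 3 gave medians of 0.07 with medium-dose Sagunja-tang, against 0.11 with all libraries, 0.09 with low-dose Samul-tang, against 0.14, and 0.08 with high-dose Samul-tang, against 0.13. Leaving out replicate 2 of medium-dose Samul-tang gave 0.10, against 0.17. With length and GC trends removed, the median was 0.09 with low-dose Sibjeondaebo-tang, against 0.16, and 0.08 with low-dose Samul-tang, against 0.14. All 12 comparisons rest on those 3 vehicle libraries, and their counts are therefore not independent.

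**Figure D1:**
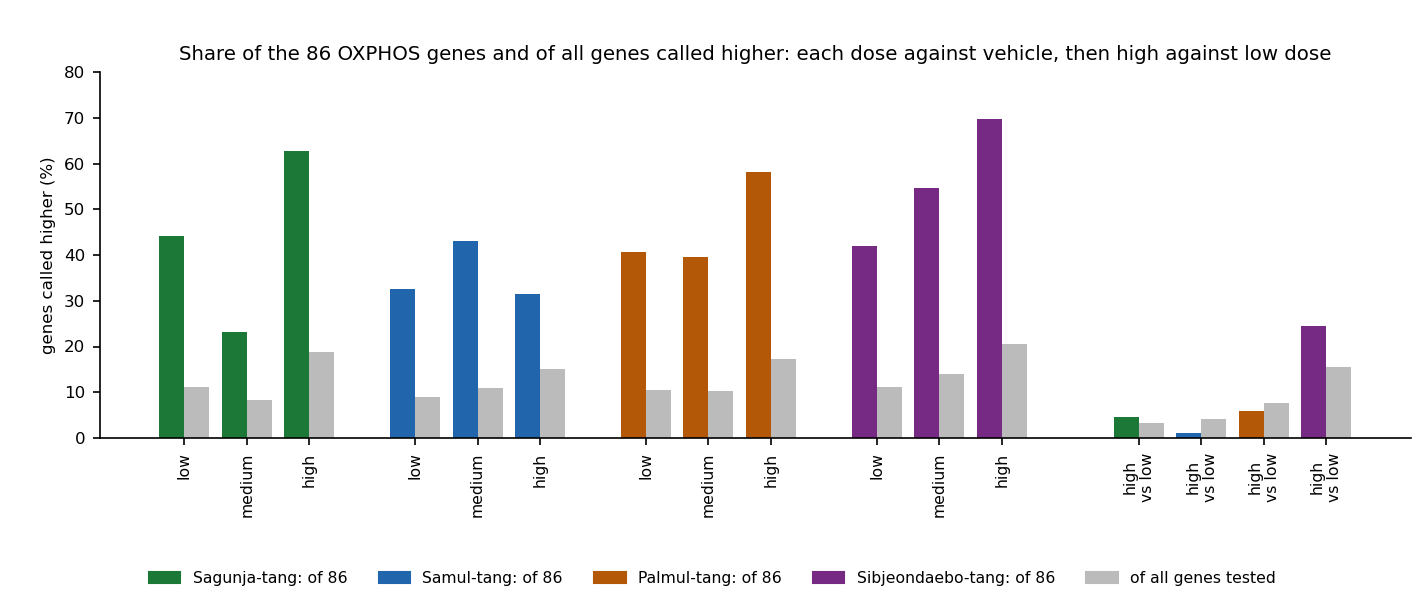
Percentage of the 86 tested oxidative phosphorylation (OXPHOS) genes (coloured bars) and of all 17433 tested genes (grey bars) called higher by edgeR, for each dose against vehicle and for the high against the low dose. Coloured bars exceed the grey ones in all 12 comparisons with vehicle, and in the high against low comparisons the Sibjeondaebo-tang bar is the tallest of the 4.

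These counts leaned on single libraries, among them vehicle replicate 3, the library with the lowest sum of nuclear-encoded respiratory counts, and in 5 of the 12 comparisons the count fell further without an extract library than without any vehicle library. Without vehicle replicate 3, Sibjeondaebo-tang had 15 genes called higher at the low and 33 at the medium dose, Palmul-tang 5 and 6, Samul-tang 4 and 13, and Sagunja-tang 13 and 2, and high-dose Samul-tang had 8. Without vehicle replicate 2 it was 18 with low-dose Samul-tang, 23 with low-dose Palmul-tang, 12 with medium-dose Sagunja-tang, 20 with medium-dose Palmul-tang and 17 with high-dose Samul-tang. Leaving out 1 of the extract's own libraries gave 29 with high-dose Sagunja-tang (replicate 2), 9 and 14 with high-dose Samul-tang (replicates 2 and 3), 0 and 4 with medium-dose Sagunja-tang (2 and 3), 1 with medium-dose Samul-tang (2), and 17 and 11 with medium-dose Palmul-tang (1 and 2). At the low dose it gave 7 and 18 with Sagunja-tang (2 and 3), 1 and 6 with Samul-tang (2 and 3) and 8 with Palmul-tang (2). High-dose and medium-dose Sibjeondaebo-tang and high-dose Palmul-tang were less sensitive, with counts from 51 to 62, 33 to 48 and 36 to 49 whichever library was left out. The low-dose Sibjeondaebo-tang count ranged from 15 to 44. Only for high-dose Sagunja-tang without replicate 2 is the share of all tested genes in the refit given above. The other counts therefore do not show whether the 86 genes stayed above genes at large.

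Across the 12 comparisons, 18 of the 86 genes were called higher every time, as were 521 of all tested genes (2.99%), and 39 were called higher in at least 6 (2037 of all tested genes, 11.7%). The 18 were 8 genes of complex I, 1 of complex II, 2 of complex III, 3 of complex IV and 4 of complex V. Ordered by their median log2 fold change over the 12 comparisons, those reported by name were ATP5ME (0.54), UQCRQ (0.46), NDUFB2 (0.43), COX7A2 (0.43), ATP5MC3 (0.38), NDUFA13 (0.37), NDUFB8 (0.35), COX4I1 (0.34), NDUFA9 (0.34), NDUFA8 (0.33), NDUFV1 (0.33), ATP5MC1 (0.26), ATP5F1B (0.25), COX7A2L (0.23), UQCRC1 (0.20), SDHA (0.18) and NDUFS1 (0.18). Without vehicle replicate 3 only NDUFV1 was called in all 12, without replicate 2 it was 12 genes, and without replicate 1 it was 27, which included all 18. Removing trends with transcript length and GC content left the same 18. By level alone, 18 genes had all 30 extract libraries above all 3 vehicle libraries (849 of all tested genes did, 4.87%) and 0 had all of them below (4.68% of all tested genes did), and 11 of the 18 with all libraries above were also among the 18 called in all 12. At the other end, 14 of the 86 genes were called in neither direction in any comparison.

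**Figure D2:**
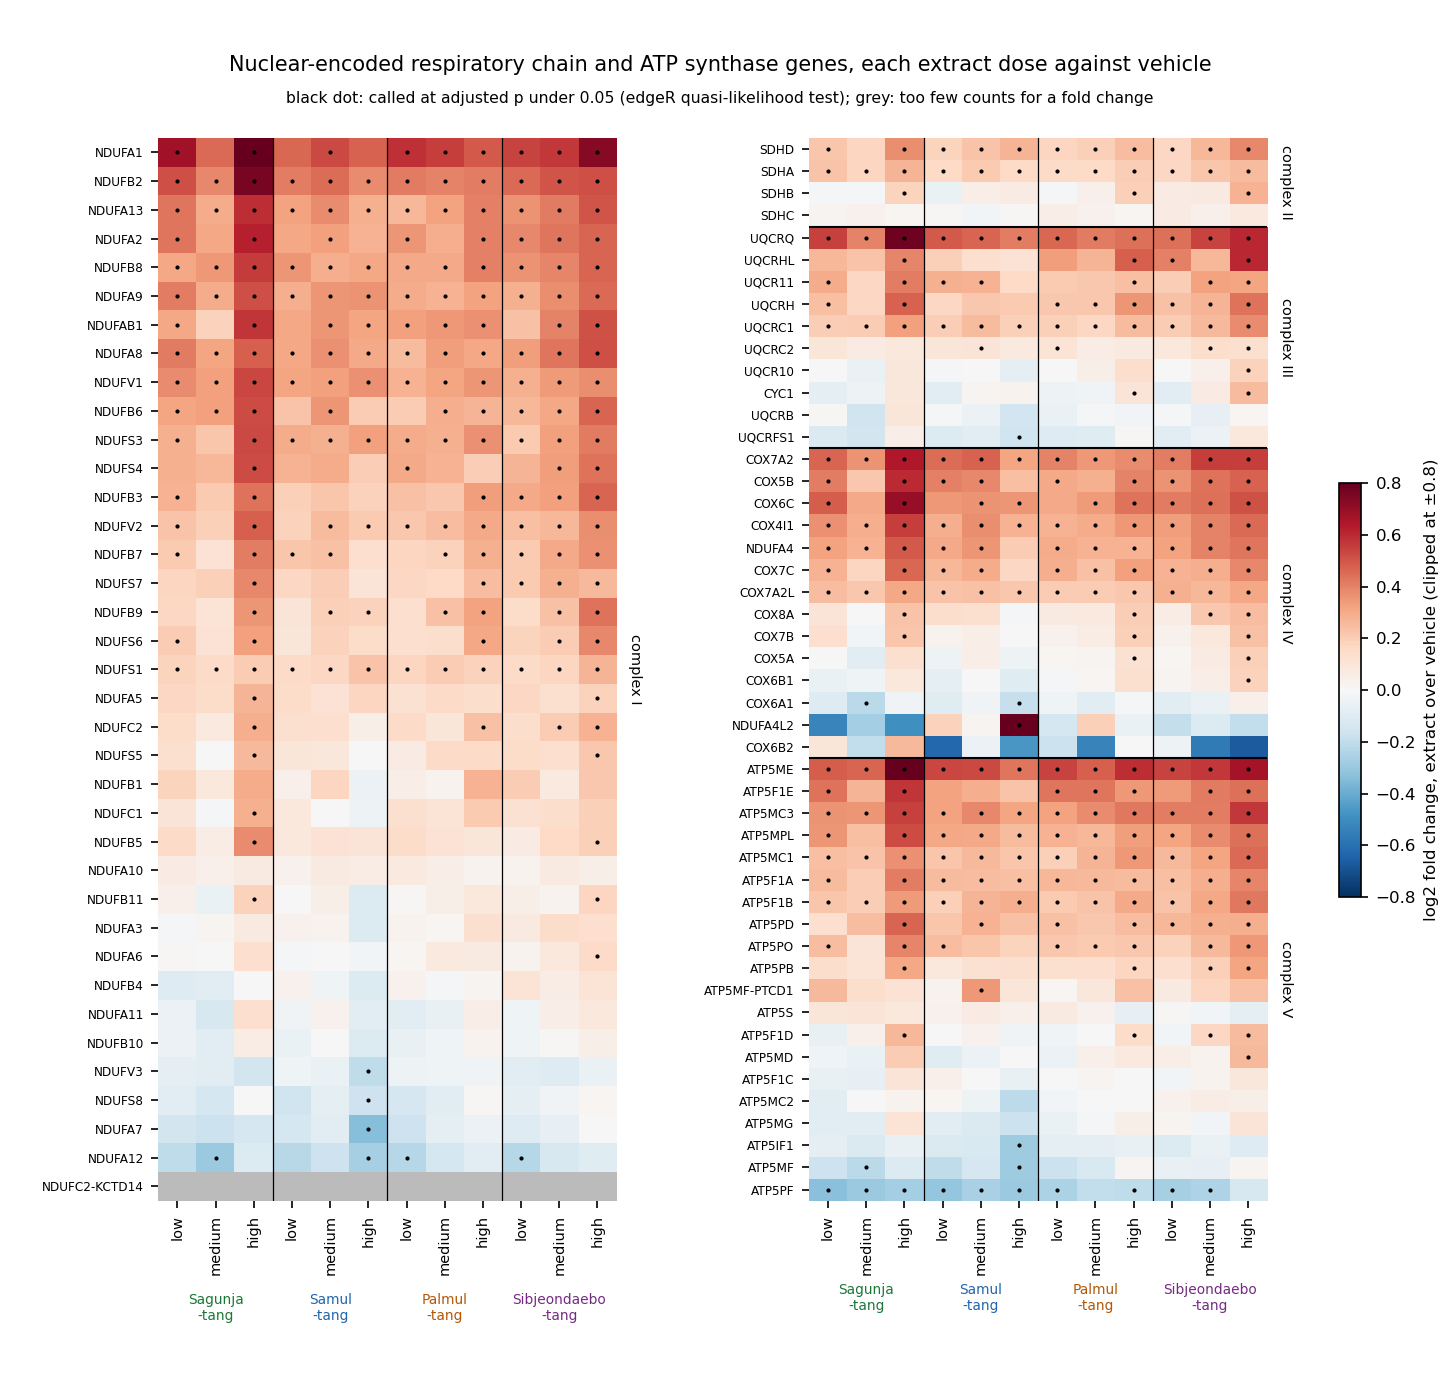
Log2 fold change over vehicle of the tested genes (rows, by complex; 1 of the 86 is not shown) for each extract and dose (columns, low to high), with colour clipped at 0.8 on either side and a dot where edgeR called the gene. NDUFA1, NDUFB2, UQCRQ, COX7A2 and ATP5ME are among the deepest red of their complexes, and ATP5PF is blue in every column.

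Promoters of 69 of the 92 genes were found in the RefSeq table (GRCh38.p14), each with 250 bases before and 50 after the annotated start. Both strands were searched for letters that the nuclear respiratory factors are known to prefer, and no matches of different motifs among NRF1, ETS and YY1 overlapped in these promoters. The NRF1 motif (GCGCA, any base, then GCGC) was found in 16 of the 69 (23.2%), against 6.28% of all 27305 promoters. YY1's AANATGGCG was also in 16 (23.2%, against 3.37% of all), the ETS letters CCGGAAGT in 9 (13%, against 4.44%) and the ERR letters CAAGGTCA in 4 (5.8%, against 1.33%). TGACNNNGC, the core of the antioxidant response element, was in 10 (14.5%, against 13.6%). Any of the NRF1, ETS and YY1 motifs stood in 34 of the 69 (49.3%, against 12.7% of all promoters). They were in 8 of the 15 promoters of genes called higher in all 12 comparisons and in 10 of the 19 of genes called higher in none. A match is only a description of the letters. The 6 genes called higher in all 12 comparisons that hold at least 2 such matches are shown first, followed by ATP5PF, the gene most often called lower, in the direction of transcription with NRF1, ETS and YY1 matches in capitals. They are shown because they belong to genes called in every comparison and to the gene that was called in the opposite direction. NDUFA8 (chr9:122159730-122160029, minus strand), ATP5ME (chr4:674227-674526, minus strand) and SDHA (chr5:218070-218369, plus strand) hold NRF1 matches only, 2, 2 and 4 of them. The 2 matches in NDUFA8 overlap each other and form 1 stretch of capitals. NDUFA9 (chr12:4648864-4649163, plus strand) and UQCRC1 (chr3:48609597-48609896, minus strand) hold 1 NRF1 and 1 YY1 match each, NDUFS1 (chr2:206159395-206159694, minus strand) an ETS and a YY1 match, and ATP5PF (chr21:25735005-25735304, minus strand) 1 YY1 match.
NDUFA8: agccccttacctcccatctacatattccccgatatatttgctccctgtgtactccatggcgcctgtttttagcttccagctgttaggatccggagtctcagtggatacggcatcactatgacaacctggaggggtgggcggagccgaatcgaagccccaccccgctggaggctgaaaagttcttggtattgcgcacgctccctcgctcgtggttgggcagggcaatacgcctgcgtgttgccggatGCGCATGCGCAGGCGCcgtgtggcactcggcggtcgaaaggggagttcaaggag
NDUFA9: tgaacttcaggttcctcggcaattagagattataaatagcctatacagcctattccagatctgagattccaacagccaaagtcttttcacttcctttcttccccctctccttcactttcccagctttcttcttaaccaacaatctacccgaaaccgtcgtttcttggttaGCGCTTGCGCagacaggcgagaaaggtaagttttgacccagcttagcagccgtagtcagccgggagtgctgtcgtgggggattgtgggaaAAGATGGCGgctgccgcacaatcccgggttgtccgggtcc
NDUFS1: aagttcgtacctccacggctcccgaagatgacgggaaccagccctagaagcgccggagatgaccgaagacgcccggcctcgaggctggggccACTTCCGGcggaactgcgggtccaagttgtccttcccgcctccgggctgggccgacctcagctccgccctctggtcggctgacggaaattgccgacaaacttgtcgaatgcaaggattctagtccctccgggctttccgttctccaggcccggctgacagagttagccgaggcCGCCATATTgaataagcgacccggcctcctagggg
SDHA: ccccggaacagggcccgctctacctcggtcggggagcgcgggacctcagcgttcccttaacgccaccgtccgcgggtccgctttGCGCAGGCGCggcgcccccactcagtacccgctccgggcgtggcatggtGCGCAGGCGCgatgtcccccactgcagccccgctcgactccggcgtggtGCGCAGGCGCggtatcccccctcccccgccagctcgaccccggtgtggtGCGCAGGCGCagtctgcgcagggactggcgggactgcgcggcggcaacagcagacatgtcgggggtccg
UQCRC1: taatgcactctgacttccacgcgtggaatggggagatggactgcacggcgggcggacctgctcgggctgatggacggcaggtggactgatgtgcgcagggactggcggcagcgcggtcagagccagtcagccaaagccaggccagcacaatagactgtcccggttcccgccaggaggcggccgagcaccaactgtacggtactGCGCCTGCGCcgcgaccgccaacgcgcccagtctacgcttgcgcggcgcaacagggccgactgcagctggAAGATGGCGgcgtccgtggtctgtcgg
ATP5ME: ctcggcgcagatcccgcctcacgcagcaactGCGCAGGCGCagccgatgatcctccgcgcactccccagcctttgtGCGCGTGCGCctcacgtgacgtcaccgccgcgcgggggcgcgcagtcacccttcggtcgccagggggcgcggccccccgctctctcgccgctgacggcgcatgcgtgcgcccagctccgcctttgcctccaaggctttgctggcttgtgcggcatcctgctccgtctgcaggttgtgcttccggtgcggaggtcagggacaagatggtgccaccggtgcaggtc
ATP5PF: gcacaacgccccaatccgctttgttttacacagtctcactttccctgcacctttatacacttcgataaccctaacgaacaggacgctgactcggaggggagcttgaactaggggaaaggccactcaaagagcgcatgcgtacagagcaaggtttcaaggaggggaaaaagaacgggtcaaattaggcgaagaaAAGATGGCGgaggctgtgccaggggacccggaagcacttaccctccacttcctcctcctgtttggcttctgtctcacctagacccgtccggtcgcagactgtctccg

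Complex I, the NADH dehydrogenase, had 26 of its 38 genes called higher with high-dose Sibjeondaebo-tang, 20 with Palmul-tang, 12 with Samul-tang and 26 with Sagunja-tang, and the median log2 fold changes over vehicle were 0.27, 0.24, 0.14 and 0.31 in that order. The Sagunja-tang count was 12 and its median 0.19 without high replicate 2. NDUFV1 (ENSG00000167792, chromosome 11, 67605653 to 67612554), whose flavoprotein takes the electrons from NADH, was at 129, 135 and 142 CPM with high-dose Sibjeondaebo-tang, against 108, 105 and 101 CPM in vehicle. Every extract library lay above every vehicle library, the high-dose rise was 0.37 ± 0.07 (log2 fold change ± SE, adjusted p = 5.35e-05 by edgeR), and the lowest of the 12 rises was 0.28, with low-dose Palmul-tang. The same gene had 173 and 129.7 CPM in the 2 high-dose Sagunja-tang libraries and 139.6 and 129.6 CPM in those of Samul-tang, and the call held without any single library in both.

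NDUFS1 (ENSG00000023228, chromosome 2, 206114817 to 206159603), the largest iron-sulphur subunit, had 158, 166 and 165 CPM with high-dose Sibjeondaebo-tang and 139, 138 and 129 CPM in vehicle, a rise of 0.27 ± 0.04 (adjusted p = 1.59e-05, edgeR) with no overlap. Larger rises came from accessory subunits of the membrane arm, such as NDUFA1 and NDUFB2. NDUFA1 (ENSG00000125356, chromosome X, 119871487 to 119876662) reached 56.3 and 33.8 CPM with high-dose Sagunja-tang and 31.2, 37.0 and 39.9 CPM with Sibjeondaebo-tang, against 27.2, 21.4 and 16.4 CPM in vehicle. The rises were 1.04 ± 0.18 and 0.73 ± 0.16 (adjusted p = 4.58e-05 and adjusted p = 0.000634, edgeR), and both groups lay wholly above a vehicle group that was itself widely spread. Without Sagunja-tang high replicate 2 the rise of NDUFA1 with Sagunja-tang was 0.64 and still called, and that of NDUFV1 was 0.31. NDUFB2 had 49.5, 53.8 and 58.7 CPM with high-dose Sibjeondaebo-tang and 42.8, 35.7 and 34.8 CPM in vehicle, again without overlap (0.52 ± 0.11, adjusted p = 0.000574, edgeR).

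Complex II, succinate dehydrogenase, also serves the tricarboxylic acid cycle, and its 4 genes split into those that rose in most comparisons and those that did not. SDHA (ENSG00000073578, chromosome 5, 218241 to 256700), the catalytic flavoprotein, had 293, 286 and 297 CPM with high-dose Sibjeondaebo-tang, against 252, 247 and 235 CPM in vehicle. All 30 extract libraries were above all 3 vehicle libraries, with a rise at that dose of 0.25 ± 0.04 (adjusted p = 2.24e-05, edgeR) and called rises in all 12 comparisons, or in 7 without vehicle replicate 3. SDHD (ENSG00000204370, chromosome 11, 112086773 to 112120013), a membrane anchor, had 124, 129 and 137 CPM with high-dose Sibjeondaebo-tang and 104, 101 and 93.9 CPM in vehicle, a rise of 0.38 ± 0.05 (adjusted p = 3.16e-06, edgeR). Its 30 extract libraries too lay above the vehicle libraries. SDHB (ENSG00000117118, chromosome 1, 17018722 to 17054170), the iron-sulphur subunit, had 90.8, 89.3 and 86.1 CPM with high-dose Sibjeondaebo-tang, against 75.3, 75.2 and 69.2 CPM in vehicle (0.28 ± 0.04, adjusted p = 7.74e-06, edgeR). It was called higher at the high dose only of Sagunja-tang, Palmul-tang and Sibjeondaebo-tang, and the Sagunja-tang call was lost without replicate 2 of that group (0.08). SDHC, the other anchor, had 124, 134 and 127 CPM with high-dose Sibjeondaebo-tang and 123, 118 and 123 CPM in vehicle (0.08 ± 0.04, adjusted p = 0.0919, edgeR), and it was called in none of the 12 comparisons.

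In complex III, which passes electrons from ubiquinol to cytochrome c, 8, 6, 2 and 5 of 10 genes were called higher at the high dose of Sibjeondaebo-tang, Palmul-tang, Samul-tang and Sagunja-tang, with medians of 0.28, 0.19, 0.10 and 0.21. For Sagunja-tang it was 3 with a median of 0.14 without high replicate 2. The genes of its electron-carrying subunits were not the ones called in every comparison. CYC1, for cytochrome c1, and UQCRFS1, for the Rieske iron-sulphur protein, stayed near vehicle at most doses, while UQCRQ, a small subunit, and UQCRC1, a core subunit without a redox centre, were called higher in all 12. UQCRQ (ENSG00000164405, chromosome 5, 132866560 to 132868031) had 134 and 94.2 CPM with high-dose Sagunja-tang and 92.9, 97.0 and 113 CPM with high-dose Sibjeondaebo-tang, against 74.5, 64.3 and 60.2 CPM in vehicle. Neither group overlapped vehicle, and the rises were 0.78 ± 0.12 and 0.61 ± 0.11 (adjusted p = 2.28e-05 and adjusted p = 8.54e-05, edgeR). Without Sagunja-tang high replicate 2 the UQCRQ rise with Sagunja-tang was 0.51, still called.

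UQCRC1 (ENSG00000010256, chromosome 3, 48599002 to 48610976) had 113, 111 and 119.6 CPM with high-dose Sibjeondaebo-tang and 91.9, 89.7 and 82.8 CPM in vehicle, a rise of 0.38 ± 0.05 without overlap (adjusted p = 1.36e-06, edgeR). CYC1 (ENSG00000179091, chromosome 8, 144095027 to 144097525) had 167, 166 and 169.8 CPM with high-dose Sibjeondaebo-tang, against 135, 137 and 151 CPM in vehicle (0.25 ± 0.04, adjusted p = 3.35e-06, edgeR). That group lay above vehicle, whereas the call with high-dose Palmul-tang (148, 151 and 154 CPM, 0.10 ± 0.04) came from groups that overlapped, and there the value was -0.0011 once length and GC trends were removed. UQCRFS1 had 164, 159.9 and 159.6 CPM with high-dose Sibjeondaebo-tang and 158, 148 and 151 CPM in vehicle (0.08 ± 0.05, adjusted p = 0.168, edgeR), which missed the threshold. UQCRH, the hinge protein gene, had 150.1, 167 and 166 CPM with high-dose Sibjeondaebo-tang and 127, 119 and 111 CPM in vehicle (a rise of 0.44 ± 0.08), and its near-identical copy UQCRHL had 7.71, 11.3 and 10.6 CPM and 6.65, 6.90 and 5.88 CPM. The counting could divide reads between those copies, so their separate values are uncertain.

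In complex IV, cytochrome c oxidase, 14 of 19 genes were tested, and 11, 10, 5 and 9 were called higher at the high dose of Sibjeondaebo-tang, Palmul-tang, Samul-tang and Sagunja-tang, with medians of 0.28, 0.21, 0.19 and 0.28. Leaving out Sagunja-tang high replicate 2 gave 6 genes and a median of 0.21 for that extract. COX4I1 (ENSG00000131143, chromosome 16, 85798633 to 85807044), the regulatory subunit that binds ATP, had 209.7 and 172 CPM with high-dose Sagunja-tang and 172, 178 and 185 CPM with high-dose Sibjeondaebo-tang, against 139, 132 and 119.7 CPM in vehicle. Both groups were above vehicle, by 0.55 ± 0.08 and 0.45 ± 0.08 (adjusted p = 1.73e-05 and adjusted p = 3.09e-05, edgeR). Without Sagunja-tang high replicate 2 the COX4I1 rise with Sagunja-tang was 0.40, still called. COX5A, another regulatory subunit gene, had 152, 151 and 158 CPM with high-dose Sibjeondaebo-tang and 138, 134 and 132 CPM in vehicle, a smaller rise of 0.19 ± 0.05 (adjusted p = 0.00132, edgeR). It was called only at the high dose of Palmul-tang and Sibjeondaebo-tang.

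Complex IV is also the complex with most tissue-specific isoforms, and in these cells 1 member of each isoform set carried nearly all the reads, except that COX7A2L stood at 52.5 CPM per kilobase beside COX7A2. Per kilobase of transcript, vehicle levels averaged 164 CPM for COX4I1, 318 for COX6A1, 472 for COX6B1, 150 for COX7A2, 169 for COX7B and 431 for COX8A. The lung isoform COX4I2, the muscle isoform COX6A2, COX7B2 and COX8C averaged 0 CPM per kilobase, the testis isoform COX6B2 0.321 and the muscle isoform COX7A1 0.284. COX7A2 (ENSG00000112695, chromosome 6, 75237675 to 75250323) had 104, 103 and 109 CPM with high-dose Sibjeondaebo-tang, against 78.0, 74.0 and 63.4 CPM in vehicle, and all 30 extract libraries were above vehicle (0.55 ± 0.08 at that dose, adjusted p = 8.31e-06, edgeR). COX7A2L, whose protein joins complexes III and IV in supercomplexes, had 67.8, 74.8 and 74.3 CPM with high-dose Sibjeondaebo-tang and 63.5, 57.0 and 54.5 CPM in vehicle, a rise of 0.31 ± 0.06 (adjusted p = 0.000362, edgeR). COX6B1 had 309, 302 and 300.0 CPM in the same treated group and 274, 273 and 257 CPM in vehicle (0.18 ± 0.06, adjusted p = 0.0127, edgeR), a call that was lost without vehicle replicate 3 (0.15). COX6A1 was called higher in none of the 12 comparisons. The genes that did not pass the filter were COX4I2, COX6A2, COX7A1, COX7B2 and COX8C of this complex, with COX8C at 0 counts in all 33 libraries, and ATP5MGL of complex V.

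NDUFA4 and NDUFA4L2 are paralogs of complex IV that were called in different comparisons. NDUFA4 had 136, 134 and 148 CPM with high-dose Sibjeondaebo-tang and 118, 101 and 93.0 CPM in vehicle, a rise of 0.43 ± 0.08 (adjusted p = 5.47e-05, edgeR), and it missed the threshold with high-dose Samul-tang (0.21 ± 0.08, adjusted p = 0.0671). NDUFA4L2 (ENSG00000185633, chromosome 12, 57234903 to 57240715), a gene known to be induced by hypoxia, had 1.14 and 1.28 CPM with high-dose Samul-tang, against 0.446, 0.488 and 0.401 CPM in vehicle. Both Samul-tang libraries stood above the other 31, which ran up to 0.651 CPM, with a rise over vehicle of 1.44 ± 0.27 (adjusted p = 0.000261, edgeR). At about 1 CPM the gene was still far below NDUFA4, which had 119.8 and 119.6 CPM in the same libraries, and no other extract or dose gave a call.

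**Figure D3:**
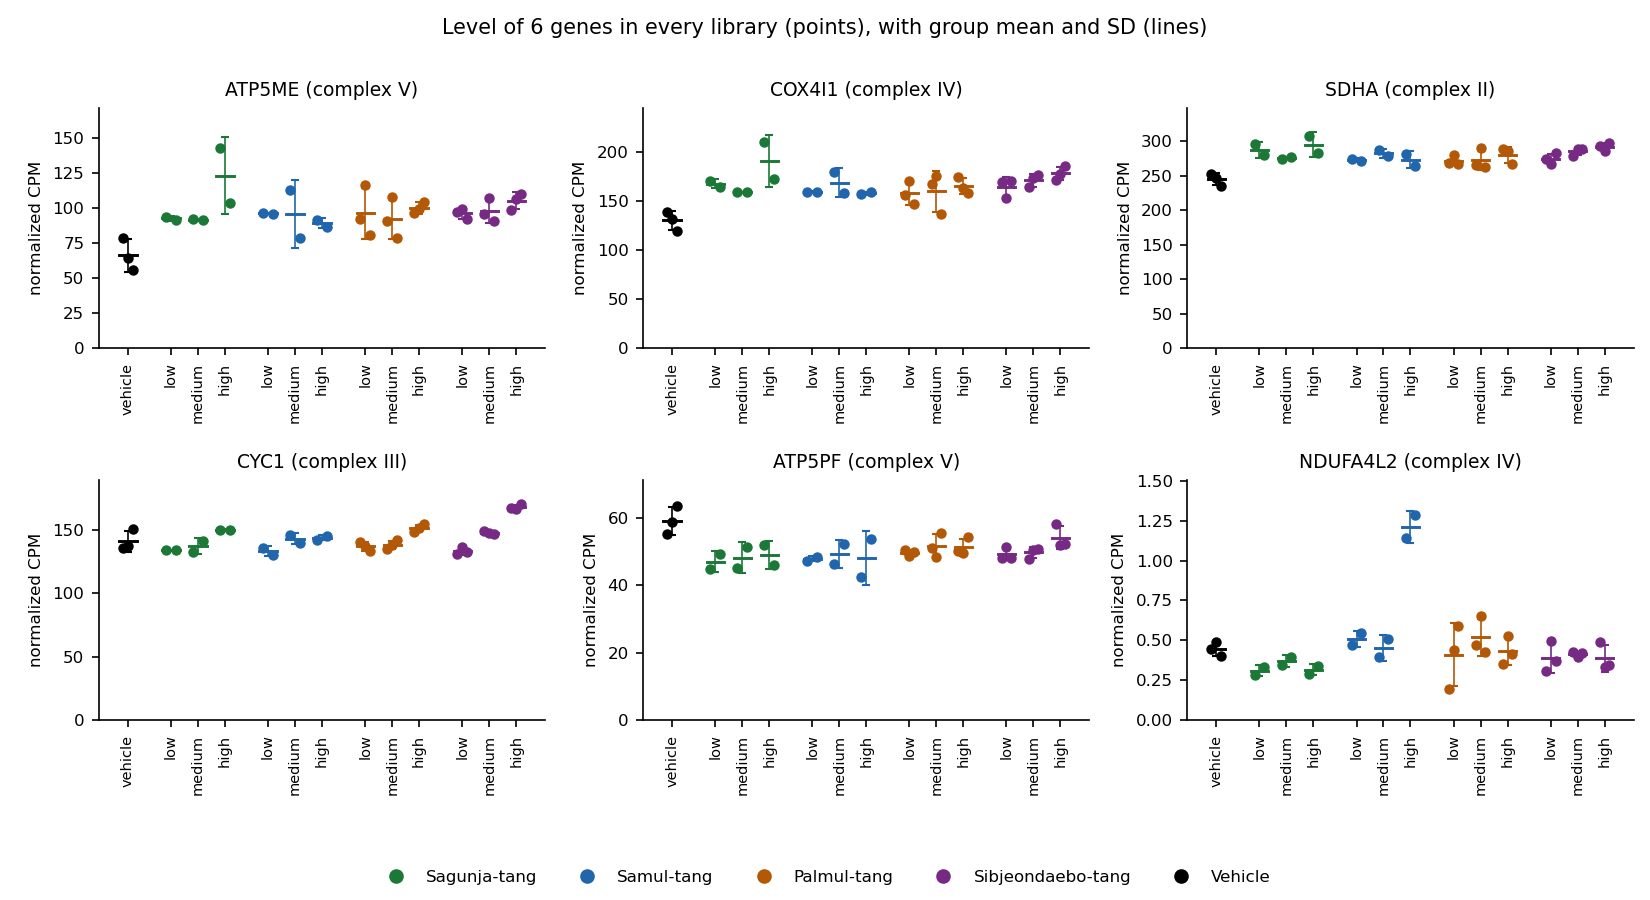
Normalised CPM of ATP5ME, COX4I1, SDHA, CYC1, ATP5PF and NDUFA4L2 in every library (points) with the mean and SD of each group (lines), vehicle at the left and each extract's doses from low to high. COX4I1 lies above vehicle at nearly all doses, CYC1 only with high-dose Sibjeondaebo-tang, ATP5PF lies below vehicle, and NDUFA4L2 stands out with high-dose Samul-tang at 1.14 and 1.28 CPM.

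In complex V, 12, 11, 6 and 11 of 20 tested genes were called higher at the high dose of Sibjeondaebo-tang, Palmul-tang, Samul-tang and Sagunja-tang, with medians of 0.28, 0.19, 0.11 and 0.29. For Sagunja-tang 6 genes and a median of 0.18 were left without its high replicate 2. ATP5F1B (ENSG00000110955, chromosome 12, 56638175 to 56646068), the catalytic beta subunit of the soluble head, had 604, 607 and 629 CPM with high-dose Sibjeondaebo-tang, against 496, 462 and 414 CPM in vehicle. All 30 extract libraries exceeded the vehicle libraries, and the rise at that dose was 0.42 ± 0.05 (adjusted p = 3.02e-07, edgeR). ATP5F1A, the alpha subunit gene, had 311, 314 and 337 CPM with the same treatment and 267, 244 and 222 CPM in vehicle (0.39 ± 0.07, adjusted p = 6.2e-05, edgeR), and its extract libraries were likewise all above vehicle. ATP5ME (ENSG00000169020, chromosome 4, 672436 to 674338), subunit e, which lies where synthase dimers meet, had 143 and 104 CPM with high-dose Sagunja-tang and 98.5, 107 and 110.4 CPM with high-dose Sibjeondaebo-tang, against 78.9, 64.4 and 55.5 CPM in vehicle. It was the gene with the largest median rise of the 18 called in all 12 comparisons, 0.89 ± 0.15 and 0.67 ± 0.13 in these groups (adjusted p = 3.92e-05 and adjusted p = 0.000254, edgeR). Its vehicle libraries spread widely, and without vehicle replicate 3 only 4 of the 12 calls held, or 8 without replicate 2. Without Sagunja-tang high replicate 2 the ATP5ME rise with Sagunja-tang was 0.64, still called.

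The c-ring of the synthase is made of 1 mature protein that 3 genes encode, and these genes moved unequally. ATP5MC3 had 124, 135 and 137 CPM with high-dose Sibjeondaebo-tang and 95.3, 91.8 and 80.5 CPM in vehicle, a rise of 0.56 ± 0.08 (adjusted p = 1.6e-06, edgeR). ATP5MC1 had 58.2, 62.0 and 61.0 CPM with high-dose Sibjeondaebo-tang and 46.6, 46.5 and 39.2 CPM in vehicle, a rise of 0.45 ± 0.06 (adjusted p = 8.25e-07, edgeR). ATP5MC2, the most abundant of them per kilobase in vehicle (200 CPM, against 106 for ATP5MC3 and 81.8 for ATP5MC1), had 159, 165 and 178 CPM and 159, 157 and 170.4 CPM (0.04 ± 0.07, adjusted p = 0.675, edgeR). The first pair rose in all 12 comparisons, and ATP5MC2 was called in none. The read-through genes NDUFC2-KCTD14 and ATP5MF-PTCD1 matched the naming rule too. NDUFC2-KCTD14 was at 0 to 0.355 CPM in extract libraries and 0 to 0.318 CPM in vehicle libraries, too low for a fold change, and leaving it out moved no median by more than 0.01. ATP5MF-PTCD1 ranged from 9.63 to 14.0 CPM with extracts and from 9.28 to 12.6 CPM in vehicle.

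Lower calls were fewer than higher ones in all 12 comparisons with vehicle. With Sibjeondaebo-tang they numbered 2 of 86 at the low dose (10.9% of all tested genes were lower), 1 at the medium dose (12%) and 0 at the high dose (19.1%). Palmul-tang gave 2 (9.73%), 0 (9.63%) and 1 (14.8%) from the low to the high dose, Samul-tang 1 (8.7%), 1 (9.27%) and 9 (12.5%), and Sagunja-tang 1 (10.7%), 4 (8.05%) and 1 (18%). At an unadjusted p under 0.05, edgeR gave 1 lower gene each for medium-dose Palmul-tang and high-dose Sibjeondaebo-tang, and DESeq2's adjusted calls were 1 and 0. With length and GC trends removed there were more: 8 (12.8% of all tested genes), 1 (12.7%) and 1 (18.2%) with Sibjeondaebo-tang from the low to the high dose, 8 (12.1%), 4 (11.1%) and 2 (15%) with Palmul-tang, 5 (11.2%), 3 (11.3%) and 12 (14.1%) with Samul-tang, and 6 (13%), 9 (10.6%) and 4 (17%) with Sagunja-tang. Where 1 gene was called in the fit without that removal it was ATP5PF, and where 2 were called, NDUFA12 was the other. Without vehicle replicate 3 the count was 5 with high-dose Samul-tang, 1 with low-dose Sagunja-tang and 0 in the other 10 comparisons. Without vehicle replicate 2 it was 1 with low-dose Palmul-tang and 0 with medium-dose Samul-tang and high-dose Palmul-tang, and without vehicle replicate 1 it was 3 with low-dose Samul-tang and 1 with medium-dose Palmul-tang. Leaving out replicate 2 of the extract's own group gave 0 with Samul-tang at every dose, with low-dose and medium-dose Sagunja-tang and with low-dose and high-dose Palmul-tang, 2 with high-dose Sagunja-tang and 1 with high-dose Sibjeondaebo-tang. Leaving out its replicate 3 gave 7 with medium-dose and 0 with high-dose Sagunja-tang, 0 with low-dose Samul-tang, 2 with medium-dose Palmul-tang and 1 with low-dose Sibjeondaebo-tang. Leaving out its replicate 1 gave 0 with high-dose Palmul-tang and medium-dose Sibjeondaebo-tang and 1 with low-dose Sibjeondaebo-tang.

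ATP5PF (ENSG00000154723, chromosome 21, 25716503 to 25735673), coupling factor 6 of the synthase stalk, was called lower in 10 of 12 comparisons. Its extract libraries ranged from 42.4 to 58.2 CPM, against 55.2, 58.6 and 63.5 CPM in vehicle, and 28 of 30 lay below all vehicle libraries. With high-dose Samul-tang it had 42.4 and 53.6 CPM, a log2 fold change of -0.30 ± 0.08 (adjusted p = 0.00822, edgeR), and with high-dose Sibjeondaebo-tang it missed the threshold (58.2, 51.9 and 52.2 CPM, -0.13 ± 0.07, adjusted p = 0.177). The direction was negative in all 12, but without vehicle replicate 3, where the gene was highest, 1 of the calls held, and without replicate 2 it was 8. NDUFA12, an accessory subunit of complex I, was called lower in 4 comparisons and in 0 without vehicle replicate 3, and 27 of its 30 extract libraries were below vehicle.

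High-dose Samul-tang had most of the other lower calls, but its 9 of 86 were a smaller share than the 12.5% of all tested genes. With length and GC trends removed, its 12 of 86 were again no larger a share than the 14.1% of all tested genes. ATP5IF1, whose product inhibits ATP hydrolysis by the synthase, had 94.4 and 101 CPM, against 114, 118 and 123 CPM in vehicle (-0.28 ± 0.07, adjusted p = 0.00197, edgeR). NDUFA7, an accessory gene of complex I, had 19.1 and 21.4 CPM with high-dose Samul-tang and 24.0, 27.4 and 25.7 CPM in vehicle (-0.34 ± 0.10, adjusted p = 0.0129, edgeR). In both genes the groups did not overlap. The remaining ones were ATP5MF (-0.28), NDUFA12 (-0.27), NDUFV3 (-0.20), COX6A1 (-0.18), NDUFS8 (-0.17) and UQCRFS1 (-0.16), of which COX6A1 overlapped vehicle. With medium-dose Sagunja-tang, COX6A1 (-0.22), NDUFA12 (-0.30) and ATP5MF (-0.22) were lower beside ATP5PF, and the count of 4 was 0 without vehicle replicate 3.

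Within an extract, the high dose was compared with the low dose, a comparison that does not use the vehicle libraries. With Sibjeondaebo-tang 21 of 86 genes were higher (15.5% of all tested genes were), with a median log2 fold change of 0.13. Palmul-tang gave 5 (5.81%, against 7.66% of all tested genes) with a median of 0.08. Sagunja-tang gave 4 (4.65%, against 3.33%) with a median of 0.14, and Samul-tang 1 (1.16%, against 4.1%) with a median of -0.02. The counts with Palmul-tang and Samul-tang were thus below the share of all genes, and that with Sagunja-tang was close to it. The Sagunja-tang median was 0.0029 without high replicate 2, 0.28 without high replicate 3 and 0.09 with length and GC trends removed. With 1 library left out the medians ran from 0.11 to 0.14 with Sibjeondaebo-tang, from 0.04 to 0.11 with Palmul-tang and from -0.07 to -0.01 with Samul-tang, and with trends removed the Samul-tang median was 0.0048. Counts of lower genes were 0 in each, against 14.3% of all tested genes for Sibjeondaebo-tang, 6.75% for Palmul-tang, 3.86% for Sagunja-tang and 3.43% for Samul-tang. At an unadjusted p under 0.05, edgeR gave 1, 1, 0 and 5 lower genes in that order, and DESeq2's adjusted calls gave 0 in all 4. Samul-tang had 4 lower genes when only the groups compared were fitted, and Samul-tang and Sagunja-tang had 1 each without the filter on low counts. The Sibjeondaebo-tang count was 12 or 13 without high replicate 3, high replicate 2 or low replicate 3. With length and GC trends removed it was 34, and the share of all tested genes was then 20.7%. The Sagunja-tang count of 4 moved when any single library of either dose was left out, a refit that leaves 1 library in a group. For none of these extracts is the share of all tested genes given with 1 library left out. The Palmul-tang count was 2 without high replicate 3, low replicate 1 or low replicate 3, and 3 without high replicate 1 or high replicate 2.

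**Figure D4:**
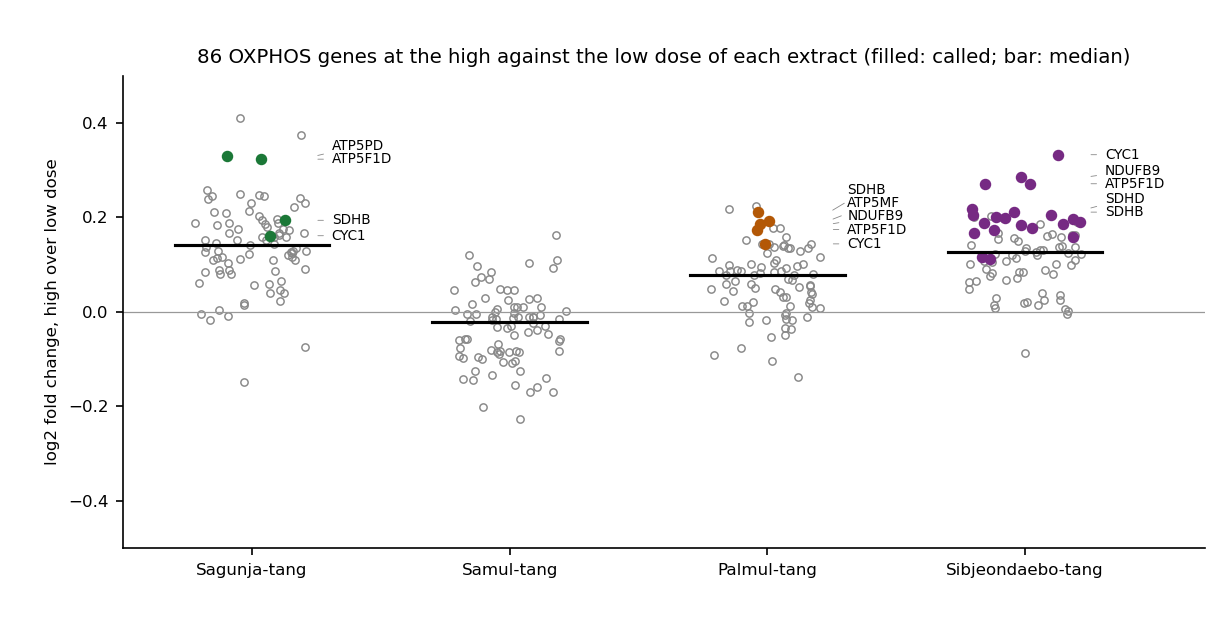
Log2 fold change at the high over the low dose for the 86 tested genes in each extract, filled where edgeR called the gene, with a bar at the median. The medians are 0.14, -0.02, 0.08 and 0.13 from left to right, 21 points are filled with Sibjeondaebo-tang, and 6 points lie beyond the axis, among them NDUFA4L2 with Samul-tang.

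The 21 genes were 5 of 38 tested in complex I, 2 of 4 in complex II, 5 of 10 in complex III, 4 of 14 in complex IV and 5 of 20 in complex V. In complex I this share, 13.2%, was below the 15.5% of all tested genes. CYC1 had 131, 136 and 132 CPM at the low dose, 149, 147 and 146 CPM at the medium dose and 167, 166 and 169.8 CPM at the high dose of Sibjeondaebo-tang. Its difference between the high and the low dose, 0.33 ± 0.04, was the largest of the 21 (adjusted p = 5.82e-08, edgeR), and the groups at the 3 doses did not overlap. The next largest were NDUFB9 (0.29 ± 0.06), an accessory gene of complex I, ATP5F1D (0.27 ± 0.05), the delta subunit of the rotor stalk, NDUFAB1 (0.27 ± 0.10), the mitochondrial acyl carrier protein, and SDHD (0.22 ± 0.05). For ATP5F1D the low dose stayed near vehicle: it had 85.5, 80.7 and 85.5 CPM at the high dose, 66.5, 72.6 and 69.5 CPM at the low dose and 69.9, 70.5 and 71.2 CPM in vehicle. By contrast ATP5ME, high at every dose, differed by 0.13 ± 0.13 between the high and the low dose (adjusted p = 0.504, edgeR).

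SDHB was called higher at the high than at the low dose in more than 1 extract. With Palmul-tang and Sagunja-tang it was among counts that were below or close to the share of all genes. It had 90.8, 89.3 and 86.1 CPM at the high and 73.6, 78.2 and 78.2 CPM at the low dose of Sibjeondaebo-tang, a rise of 0.21 ± 0.04 (adjusted p = 0.000283, edgeR). With Palmul-tang it had 80.9, 84.8 and 85.5 CPM at the high and 70.3, 74.2 and 72.5 CPM at the low dose (0.21 ± 0.04, adjusted p = 0.000724, edgeR). Neither pair of groups overlapped, and both calls held under all alternatives and with each library left out. The other called genes of Palmul-tang were ATP5F1D (0.17), ATP5MF (0.19), CYC1 (0.14) and NDUFB9 (0.19), and those of Sagunja-tang were ATP5PD (0.33), ATP5F1D (0.32), SDHB (0.19) and CYC1 (0.16). With Samul-tang the single gene was NDUFA4L2, which had 1.14 and 1.28 CPM at the high and 0.473 and 0.543 CPM at the low dose (1.25 ± 0.29, adjusted p = 0.00526, edgeR). That call was lost without low replicate 2 or high replicate 3, and DESeq2 did not give it.

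Between extracts at the high dose, Samul-tang had 9 of 86 genes lower than Sagunja-tang (1.92% of all tested genes were) and 1 higher (3.55%), with a median log2 difference of -0.21. That median was -0.07 without Sagunja-tang high replicate 2, -0.33 without Sagunja-tang high replicate 3 and -0.12 with length and GC trends removed. The 9 were NDUFA13 (-0.31), ATP5F1D (-0.29), COX7C (-0.29), NDUFB11 (-0.29), NDUFS7 (-0.28), NDUFB7 (-0.28), NDUFC2 (-0.24), COX8A (-0.24) and UQCRFS1 (-0.21). ATP5F1D, for example, had 70.9 and 67.5 CPM with Samul-tang and 93.8 and 75.9 CPM with Sagunja-tang, without overlap, and the gap between the Sagunja-tang libraries was wider than the gap between the groups. The result rested on the Sagunja-tang library used, as the medians without replicate 2, which stood apart, and without replicate 3 differ. The count of lower genes moved when any single library of either group was left out, and each such refit leaves 1 library in a group. With length and GC trends removed that count was 1 (0.872% of all tested genes). The gene that was higher was NDUFA4L2, with 1.14 and 1.28 CPM with Samul-tang and 0.29 and 0.341 CPM with Sagunja-tang (1.93 ± 0.32, adjusted p = 0.00079, edgeR). It was not called by DESeq2 or with only the groups compared.

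Sibjeondaebo-tang against Palmul-tang at the high dose gave 1 higher gene of 86 (0.35% of all tested genes were) and a median of 0.07. It was CYC1, with 167, 166 and 169.8 CPM with Sibjeondaebo-tang and 148, 151 and 154 CPM with Palmul-tang (0.15 ± 0.04, adjusted p = 0.0107, edgeR), which did not overlap, and the call was lost without Palmul-tang high replicate 1 or Sibjeondaebo-tang high replicate 3. The lower count was 0 (3.52% of all tested genes), with 1 at an unadjusted p under 0.05 and 0 by DESeq2. Whether the change between high and low dose differed between extracts was tested as an interaction. For Sagunja-tang against Samul-tang 0 of 86 genes were called (0.138% of all tested genes), with a median difference of 0.20, 21 genes at an unadjusted p under 0.05 and 1 by DESeq2. The count of 0 called genes rose without Sagunja-tang high replicate 3, a refit that leaves 1 library in that group. The median difference was 0.02 without Sagunja-tang high replicate 2, 0.31 without Sagunja-tang high replicate 3 and 0.11 with length and GC trends removed. For Sibjeondaebo-tang against Palmul-tang it was also 0 (1.45% of all tested genes), with a median difference of 0.05 (0.01 to 0.08 with 1 library left out) and 1 gene at an unadjusted p under 0.05. That gene was CYC1, whose change with dose was 0.19 larger on the log2 scale with Sibjeondaebo-tang and just missed the threshold (adjusted p = 0.0543, edgeR). It passed with RLE scaling, with the replicate block, with trends removed, without mitochondrially encoded genes, with only the groups compared, by DESeq2 and without Palmul-tang low replicate 3, with adjusted p between 0.00991 and 0.0474. Without the filter on low counts the gene called was NDUFA1 in its place. For the other genes the larger number of dose-related calls with Sibjeondaebo-tang is not shown to differ from Palmul-tang.

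The genes were also set beside others that respiration needs, in lists described by counts and medians. Of all tested genes 20.5, 17.3, 15 and 18.7% were called higher over vehicle at the high dose of Sibjeondaebo-tang, Palmul-tang, Samul-tang and Sagunja-tang, and 19.1, 14.8, 12.5 and 18% were called lower. Of 51 assembly factors, 33, 26, 16 and 35 were higher at the high dose of Sibjeondaebo-tang, Palmul-tang, Samul-tang and Sagunja-tang over vehicle, with medians of 0.21, 0.18, 0.15 and 0.24. The Sagunja-tang count was 12, with a median of 0.14, without high replicate 2 and 16 with only the groups compared, the Samul-tang count 9 without vehicle replicate 3 and 5 without high replicate 2, and the Palmul-tang count 14 without vehicle replicate 3 and 17 without high replicate 3. COA6, a copper-handling factor for complex IV, averaged 16.6 ± 1.27 CPM with high-dose Sibjeondaebo-tang and 10.1 ± 0.832 CPM in vehicle (SD, n = 3 each), a rise of 0.71 ± 0.08 (adjusted p = 2.65e-07, edgeR). COX20, a chaperone of complex IV assembly, was lower with all 4 extracts at the high dose (-0.22, -0.24, -0.28 and -0.21 in that order), and COX10 (-0.23) and ATPAF2 (-0.28) were lower with Sagunja-tang, as was ATPAF2 with Palmul-tang (-0.19). The 3 lower calls with Sagunja-tang were 0 without vehicle replicate 3 or high replicate 2 and with only the groups compared, and the call with Samul-tang was lost without its high replicate 2. The lower count was 2 with Sibjeondaebo-tang without vehicle replicate 3, 2 with Samul-tang without vehicle replicate 1, and 1 with Palmul-tang without vehicle replicate 2, vehicle replicate 3 or its high replicate 3. The lower genes of these lists are named after their values were seen.

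Of 19 genes for mobile electron carriers and coenzyme Q synthesis, 10, 9, 7 and 10 were higher in the same order, with medians of 0.22, 0.11, 0.15 and 0.21. Leaving out replicate 2 of high-dose Sagunja-tang gave 7 and a median of 0.13. ETFA, which passes electrons from fatty acid oxidation to coenzyme Q, averaged 148 ± 6.83 CPM with high-dose Sibjeondaebo-tang and 104 ± 5.23 CPM in vehicle (SD, n = 3 each), a rise of 0.52 ± 0.06 (adjusted p = 3.48e-07, edgeR). COQ4, of coenzyme Q synthesis, was lower with Sagunja-tang (-0.18), Samul-tang (-0.13) and Sibjeondaebo-tang (-0.17), and COQ9 with Sagunja-tang (-0.15). The Samul-tang call was lost without vehicle replicate 2, vehicle replicate 3 or either high-dose library, and 3 genes were lower without vehicle replicate 1. Of the pair with Sagunja-tang 1 was left without vehicle replicate 3 or high replicate 2 and 0 without high replicate 3 or with only the groups compared. Of 14 tricarboxylic acid cycle genes, 9, 6, 4 and 6 were higher, with medians of 0.19, 0.10, 0.09 and 0.04, and 1, 2, 3 and 4 were lower. At the shares over all genes 14 genes would hold 2.9, 2.4, 2.1 and 2.6 higher and 2.7, 2.1, 1.7 and 2.5 lower ones, so the higher count with Samul-tang and the lower counts stood within 2 genes of the background. With only the groups compared Sagunja-tang had 2 higher and 0 lower, and without its high replicate 2 it had 4 and 3 with a median of 0.06. DLST, a subunit of the 2-oxoglutarate dehydrogenase complex, averaged 105 ± 2.36 CPM with high-dose Sibjeondaebo-tang and 88.3 ± 1.61 CPM in vehicle (SD, n = 3 each; a rise of 0.25 ± 0.03, adjusted p = 4.85e-07, edgeR). IDH3G, the gamma subunit of isocitrate dehydrogenase, was lower with all 4 extracts (-0.16, -0.15, -0.26 and -0.24), CS (-0.18), OGDH (-0.27) and MDH2 (-0.13) with Sagunja-tang, MDH2 (-0.18) and IDH2 (-0.16) with Samul-tang, and IDH2 with Palmul-tang (-0.16). The lower count of Sibjeondaebo-tang was 0 without vehicle replicate 3 or its high replicate 2 or 3 and 2 without high replicate 1, that of Samul-tang 1 without high replicate 2, and that of Palmul-tang 1 without vehicle replicate 2 or 3 or any of its high-dose libraries.

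Of 14 regulators of respiratory genes 13 were tested, and 5, 4, 3 and 5 were higher at the high dose in the same order, with medians of 0.06, 0.06, 0.12 and 0.07. At the shares over all genes 13 genes would hold 2.7, 2.3, 2 and 2.4 higher ones, so the counts with Palmul-tang and Samul-tang were close to the background. The nuclear receptor gene ESRRA, the mitochondrial transcription factor gene TFAM and the mitochondrial RNA polymerase gene POLRMT were higher with all 4 extracts. The others were TFB1M with all but Samul-tang and TFB2M with Sagunja-tang and Sibjeondaebo-tang. ESRRA averaged 61.2 ± 3.12 CPM with high-dose Sibjeondaebo-tang and 43.1 ± 2.52 CPM in vehicle (0.51 ± 0.09, adjusted p = 7.66e-05, edgeR), and TFAM 127 ± 2.19 CPM and 107 ± 6.07 CPM (0.25 ± 0.04, adjusted p = 2.25e-05), SD with n = 3 each. Messenger levels of NRF1 (0.11 ± 0.07, adjusted p = 0.189, edgeR) and GABPA (0.02 ± 0.05, adjusted p = 0.769), whose products are known to bind the NRF1 and ETS motifs, missed the threshold there. PPRC1, a coactivator gene, was lower with Sagunja-tang (-0.30). Without high replicate 2 the Sagunja-tang counts were 1 higher and 0 lower with a median of 0.03, with only the groups compared they were 2 and 0, and without high replicate 2 the Samul-tang count 1 higher, and without high replicate 3 Sagunja-tang had 3 lower.

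The 13 mitochondrially encoded genes of the same complexes were lower than vehicle at the high dose in most cases. By count 10, 11, 12 and 13 were lower with Sibjeondaebo-tang, Palmul-tang, Samul-tang and Sagunja-tang, with medians of -0.47, -0.52, -0.56 and -0.82, and all 13 had a negative fold change with each extract. MT-CO1, the catalytic subunit gene of complex IV, averaged 16076 ± 239 CPM with high-dose Sibjeondaebo-tang and 20486 ± 2688 CPM in vehicle (SD, n = 3 each), a log2 fold change of -0.35 ± 0.11 (adjusted p = 0.015, edgeR). The lower counts were 3, 3 and 6 without vehicle replicate 3 for Sibjeondaebo-tang, Palmul-tang and Samul-tang, 5 and 7 without Samul-tang high replicates 2 and 3, and 4 without Palmul-tang high replicate 1. Of the 13 lower genes with Sagunja-tang 10 were left without its high replicate 2, with a median of -0.70. At the medium dose of Sibjeondaebo-tang, Palmul-tang, Samul-tang and Sagunja-tang 11, 11, 12 and 8 were lower than vehicle (12, 9.63, 9.27 and 8.05% of all tested genes). Their medians were -0.50, -0.50, -0.65 and -0.51. At the low dose it was 6, 8, 11 and 12 (10.9, 9.73, 8.7 and 10.7%), with medians of -0.41, -0.43, -0.56 and -0.78. Between the high and the low dose of Sibjeondaebo-tang, where 21 nuclear-encoded genes rose, the median of the 13 genes was -0.06. Leaving the mitochondrially encoded genes out of the table before normalisation kept all 12 counts of nuclear-encoded genes over vehicle within 1.5 times.

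Because each library's values are relative, the levels of both genomes' genes were set beside features of the libraries. The 13 mitochondrially encoded genes took 4.65 to 7.53% of counts in extract libraries and 7.43, 8.48 and 9.80% in vehicle replicates 1, 2 and 3, and the 92 nuclear-encoded genes took 0.836 to 1.06% and 0.740 to 0.826%. The ratio of these sums was 4.40 to 8.66 with extracts, against 8.99, 10.9 and 13.2 in vehicle, so vehicle replicate 3 had the highest ratio and the lowest nuclear-encoded sum of all 33 libraries. Over all genes, log2 fold changes at the high dose fell with transcript length (Spearman rho of -0.07 with Samul-tang to -0.32 with Sagunja-tang, n = 13143 genes), and the 86 genes have short transcripts, with a median of 757 bases, against 2422 for all genes. Within the 86 the relation of fold change to length ran from -0.02 to 0.15 over the 12 comparisons with vehicle. With length and GC trends removed, the counts called higher at the high dose were 58, 42, 31 and 47 for Sibjeondaebo-tang, Palmul-tang, Samul-tang and Sagunja-tang, and the medians 0.24, 0.15, 0.11 and 0.21. In that fit 22.8, 17.2, 15.4 and 18.6% of all tested genes were called higher, in the same order. The part that mitochondrial share plays in the remaining differences was not tested. Leaving out vehicle replicate 3 gave the lower counts and medians stated above, and what sets that library apart was not tested.

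**Figure D5:**
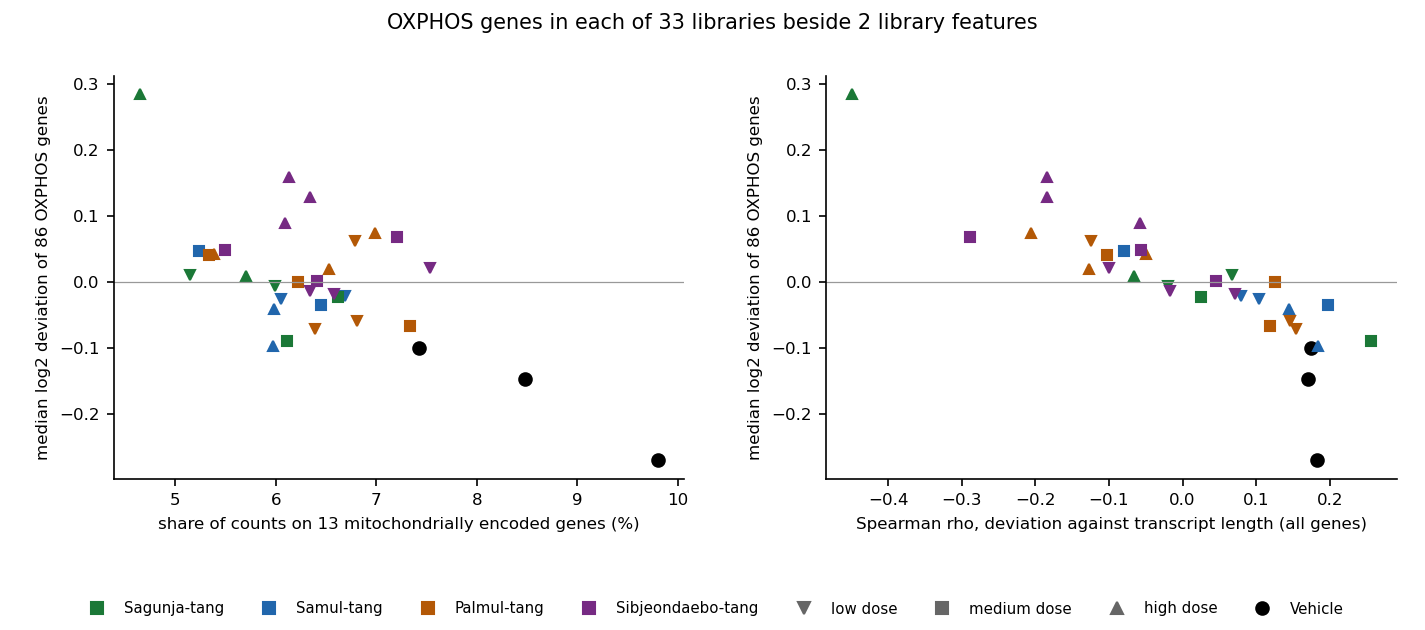
Median log2 deviation of the 86 genes from the mean library, for each of 33 libraries, against the share of counts on mitochondrially encoded genes (left) and against the Spearman correlation of all genes' deviations with transcript length (right). The 3 vehicle libraries sit low and towards the right of both panels, from -0.10 to -0.27, and Sagunja-tang high replicate 2 is the point at 0.28.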

How the data were processed

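RNA-seq values of 33 HT29 libraries were used. The submitters' processing notes name FastQC 0.11.9, Trim Galore 0.6.5, STAR 2.7.3a and RSEM 1.3.3, with hg38 as the genome build. The deposited values are the authors' RSEM expected counts per gene, not normalised. The annotation release they used is not given in the sources used here. RSEM divides reads, so 9.45% of them had decimals, and all were rounded. The table has 33 columns that match these samples, and 240 others were left unused.

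Symbols, positions and transcript lengths came from GENCODE 29, in which 57055 of 60675 gene identifiers were found. Libraries were grouped by extract and dose from their labels. Counts were tested in R 4.3.3 with edgeR 4.0.16: filterByExpr with a minimum count of 10 (17433 genes), TMM, 1 coefficient per group over all 33 libraries, the quasi-likelihood F test and Benjamini-Hochberg adjustment over all tested genes with a threshold of 0.05, in 20 comparisons. Residual degrees of freedom were 20, prior ones 7.01, and the biological coefficient of variation was 0.0489. SEs were computed as the absolute log2 fold change over the square root of F. CPM use TMM-scaled library sizes. Copies that are near-identical could share reads in the counting. The test was checked on simulated counts.

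The members and lists were chosen with earlier results of these data known. Named genes are, by rule, all SDH genes, 9 core subunits, isoform sets, the 4 largest rises and 4 largest falls per comparison among calls whose average log2 CPM reaches 2, all genes lower than vehicle, and the 4 genes of each list with the smallest p. Not all of these are named, and the text names further called genes where a count is small and other list genes where their background bears on the text, chosen after their values were seen. Alternatives were RLE scaling, no filter, replicate number as a block, removal of length and GC trends (natural splines with 4 degrees of freedom), leaving out mitochondrially encoded genes, only the groups compared, DESeq2 1.42.0 on the filtered genes, and leaving out each library in turn. Replicate 1 of Sagunja-tang and Samul-tang was not analysed here. The values of 1 gene enter the counts and medians but are not reported here.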

Additional observations from a re-analysis of the deposited data

How the results depend on the processing

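All 12 counts of genes called higher than vehicle kept within 1.5 times under RLE scaling, the replicate block, trend removal, DESeq2, fits of only the groups compared and without mitochondrially encoded genes. Without the filter, high-dose Samul-tang had 42 and medium-dose Sagunja-tang 38. For the high against the low dose, no filter gave 33 for Sibjeondaebo-tang, 10 for Palmul-tang and 19 for Sagunja-tang, and fitting only the groups compared gave 41, 14 and 0. DESeq2 gave 7 with Sagunja-tang and 0 with Samul-tang. Trend removal gave 3 with Samul-tang (5.52% of all tested genes) and 34 with Sibjeondaebo-tang (20.7%). Higher genes of Sibjeondaebo-tang over Palmul-tang were 9, 4 and 4 without the filter, with only the groups compared and with trends removed. Samul-tang over Sagunja-tang had 0 higher genes with only the groups compared and by DESeq2, and 48, 22, 28, 1 and 0 lower ones without the filter, with the block, by DESeq2, with trends removed and with only the groups compared. The Sagunja-tang and Samul-tang interaction had 11 genes without the filter and 1 by DESeq2. That of Sibjeondaebo-tang and Palmul-tang had 1 under each of these alternatives, and 0 in the fit as reported. Counts lower than vehicle moved too, most with trends removed. Without the filter they were 3 with low-dose Sagunja-tang, 4 with low-dose Samul-tang and Palmul-tang, 2 with medium-dose Samul-tang and high-dose Sagunja-tang and Palmul-tang, and 1 with medium-dose Palmul-tang, which also had 1 with the block. Low-dose Samul-tang had 3 with the block, with only the groups compared and by DESeq2, low-dose Sagunja-tang 2 by the last pair, and with only the groups compared medium-dose Sagunja-tang had 2 and high-dose Sagunja-tang 0.

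With 1 library left out, the high-dose counts over vehicle ranged from 51 to 62, 36 to 49, 8 to 34 and 29 to 61 (Sibjeondaebo-tang, Palmul-tang, Samul-tang, Sagunja-tang), the medium-dose counts from 33 to 48, 6 to 42, 1 to 40 and 0 to 28, and the low-dose counts from 15 to 44, 5 to 41, 1 to 34 and 7 to 41. The high against low counts ranged from 12 to 20, 2 to 5, 0 to 1 and 0 to 53, Sibjeondaebo-tang over Palmul-tang from 0 to 1, and the interactions from 0 to 30 and 0 to 1. Where 1 library remained in a group, its spread was taken to equal that of the other groups. Of 9710 alternatives for 773 single-gene results, 8992 kept the same outcome, which includes genes uncalled in both fits. A call was lost in 539 and gained in 178. The sign of a call turned in 1, CYC1 with high-dose Palmul-tang, at -0.0011 with trends removed.

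The labels do not say whether same-numbered libraries were handled together. Correlations of their deviations ran from -0.28 to 0.49, and no comparison with 3 pairs had all above 0.1. For replicate 3 against vehicle replicate 3 they ran from 0.05 to 0.49 with Sagunja-tang, Samul-tang and Palmul-tang. With Sibjeondaebo-tang they ran from -0.18 to -0.08. The replicate block gave 7 genes for Sagunja-tang high against low dose and 1 for the Sibjeondaebo-tang and Palmul-tang interaction, and the other counts of higher genes stayed within 1.5 times. With 2 or 3 libraries per group, a gene without a call is not shown to be unchanged.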
